A study of Mus musculus with 12 samples.

Results

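A set of 9 hormone receptors was followed in mouse islets of Langerhans: the growth hormone receptor Ghr, the leptin receptor Lepr, the oestrogen receptors Esr1 and Esr2, the progesterone receptor Pgr, the glucocorticoid receptor Nr3c1, the mineralocorticoid receptor Nr3c2, the thyroid hormone receptor Thra and the vitamin D receptor Vdr. Each is represented by the probe set that carries its symbol alone, or by the one with the highest mean where a gene has several. All 9 were found, each with 1 such probe set, among 19938 genes that have such a probe set and 35511 probe sets in all. Total RNA of isolated islets was hybridised to Affymetrix MoGene_1.0_ST arrays, 3 for each of 4 groups and 12 in all. The groups were Prlr-/- on pregnancy day 9.5 (P9.5), Prlr+/+ at P9.5, non-pregnant (NP) Prlr-/- and NP Prlr+/+. All were adult mice of the 129Sv background, and the knockout removes the prolactin receptor from the whole body. The study's methods describe a progesterone pellet, given on the first day of pregnancy, for the pregnant Prlr-/- mice alone. Genotype and pellet therefore cannot be told apart at P9.5, nor pregnancy and pellet within Prlr-/-.

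During pregnancy the endocrine pancreas meets a rising demand for insulin. Placental lactogen and prolactin act on it through the prolactin receptor, a cytokine receptor that signals through the kinase JAK2 and the transcription factor STAT5. Ghr and Lepr are cytokine receptors of the same class at the cell surface. The other 7 receptors lie inside the cell, bind a steroid, thyroid hormone or activated vitamin D, and act on DNA themselves. Thra and Vdr do so mostly in pairs with a retinoid X receptor such as Rxra.

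Values are deposited log2 expression values in steps of 0.1, made by robust multichip analysis. Levels of different probe sets are not compared, since probes differ in brightness. Across probe sets, arrays correlated at 0.979 to 0.987 within a group (12 pairs) and at 0.931 to 0.988 between groups. Islet genes were bright on all 12 arrays, with Ins2 (insulin) at 10.6 to 11, Gcg (glucagon) at 13.4 to 13.9 and Sst (somatostatin) at 13.1 to 13.6. No probe set carries the symbol Prlr alone, so under the rule used here the knockout was not checked on its own gene. The paper reports Prlr as the only gene that differed between the genotypes in NP islets. Its cut-offs were the same as those set out below for calls. In the fit used here, 36 of 35511 probe sets were called between the genotypes in NP islets. The 2 results thus differ, and the reason was not tested. Xist, a transcript that female cells make to silence an X chromosome, was at 3.8 on Prlr+/+ P9.5 replicate 2, against 10 to 10.7 on the other 11 arrays, while the Y-linked gene Kdm5d was at 4.2 there, within the 4.1 to 4.6 of all arrays. Leaving that array out changed no call of a receptor and removed 3 of 27 calls of listed genes. Calls needed a fold change of 1.5 or more together with an adjusted p under 0.05 from limma, Benjamini-Hochberg over all 35511 probe sets. The p-values measure the spread between these arrays, 3 in each group, and their number limits the precision. In whole islets fewer cells of a type and less RNA per cell cannot be told apart.

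The level above background was read against 1210 probe sets of olfactory and vomeronasal receptors, which belong to the nose. The floor of an array was the 95th percentile of those probe sets. It was 5 to 5.2 in Prlr-/- P9.5, 5.1 to 5.2 in Prlr+/+ P9.5, 5.5 to 5.7 in Prlr-/- NP and 5.4 to 5.5 in Prlr+/+ NP. The floor was thus lower at P9.5 than in NP islets of either genotype. Above the floor on all 12 arrays were 6 of the 9 receptors: Ghr, Esr1, Nr3c1, Nr3c2, Thra and Vdr. Lepr, Esr2 and Pgr were above it on 0 of 12. With the 99th percentile as the floor, Esr1 passed on 1 array of 12 and the other 5 on all 12.

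**Figure D1:**
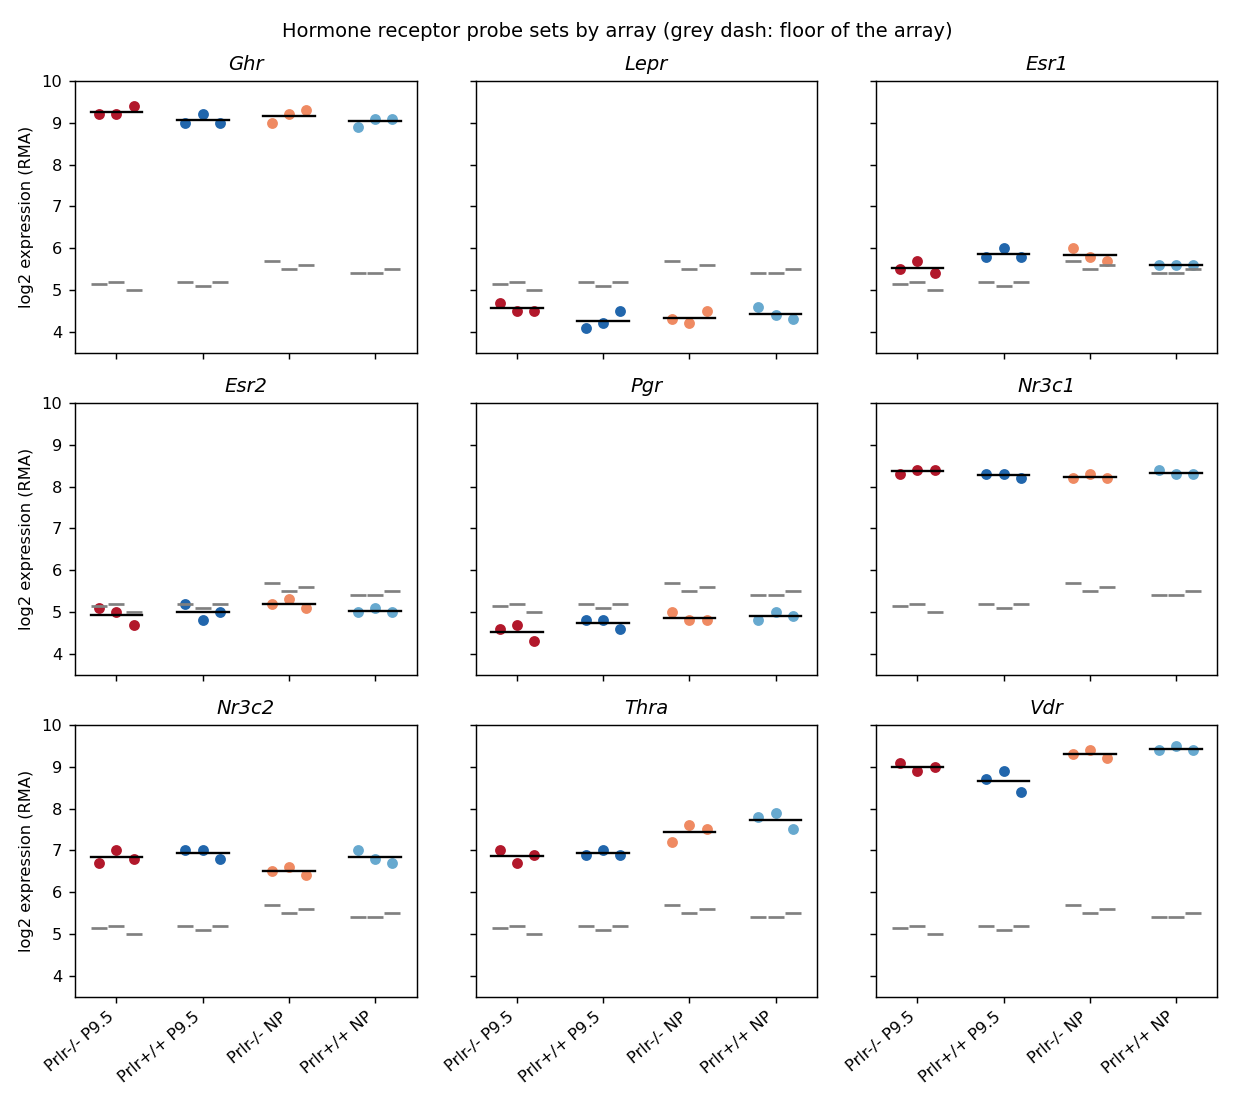
Log2 expression of the 9 receptors on each array (points), with the group mean (black line) and the floor of each array (grey dash). Ghr, Nr3c1, Nr3c2, Thra and Vdr lie above the floor throughout, Esr1 just above it, and Lepr, Esr2 and Pgr at or below it.

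With pregnancy, 2 of the 9 receptors were called in Prlr+/+ islets (both lower, against 9.93% of all probe sets called, 4.21% lower) and 0 of 9 in Prlr-/- islets (against 14.5%). The 2 were Thra, lower by 1.74-fold, and Vdr, lower by 1.7-fold. Between genotypes 0 of 9 were called at P9.5 (against 0.231%) and 0 of 9 in NP islets (against 0.101%).

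Thra encodes the thyroid hormone receptor alpha. Its levels were 7.0, 6.7 and 6.9 in Prlr-/- P9.5, 6.9, 7.0 and 6.9 in Prlr+/+ P9.5, 7.2, 7.6 and 7.5 in Prlr-/- NP, and 7.8, 7.9 and 7.5 in Prlr+/+ NP islets. In each genotype all P9.5 arrays lay below all NP arrays, while the genotypes overlapped at each stage. The mean was 6.93 ± 0.06 in Prlr+/+ P9.5 and 7.73 ± 0.21 in Prlr+/+ NP islets (SD, n = 3 each). This is a log2 fold change of -0.80 (standard error 0.135, 95% interval -1.09 to -0.51, adjusted p = 0.00214 from limma). In Prlr-/- islets the mean was 6.87 ± 0.15 at P9.5 and 7.43 ± 0.21 in NP (SD, n = 3 each). The log2 fold change there was -0.57 (standard error 0.135, 95% interval -0.86 to -0.27, adjusted p = 0.00828 from limma), a 1.48-fold difference that fell short of the fold minimum. The 2 pregnancy differences of Thra were not told apart, with an interaction of 0.23 (95% interval -0.18 to 0.65, adjusted p = 0.729 from limma).

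Vdr, the receptor of activated vitamin D, had levels of 9.1, 8.9 and 9.0 in Prlr-/- P9.5, 8.7, 8.9 and 8.4 in Prlr+/+ P9.5, 9.3, 9.4 and 9.2 in Prlr-/- NP, and 9.4, 9.5 and 9.4 in Prlr+/+ NP islets. Again all P9.5 arrays lay below all NP arrays of their genotype, and at P9.5 the genotypes met at 8.9. The mean was 8.67 ± 0.25 in Prlr+/+ P9.5 and 9.43 ± 0.06 in Prlr+/+ NP islets (SD, n = 3 each), a log2 fold change of -0.77 (standard error 0.123, 95% interval -1.04 to -0.50, adjusted p = 0.00167 from limma). In Prlr-/- islets the log2 fold change was -0.30 (standard error 0.123, 95% interval -0.57 to -0.03, unadjusted p = 0.0318, adjusted p = 0.0798 from limma), so Vdr was not called there. The interaction was 0.47 (95% interval 0.09 to 0.85, unadjusted p = 0.0204, adjusted p = 0.414 from limma). Vdr was thus called in Prlr+/+ and not in Prlr-/- islets, while the difference between the genotypes did not pass the adjusted threshold.

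With Prlr+/+ P9.5 replicate 2 left out, the pregnancy difference in Prlr+/+ was -0.83 for Thra (adjusted p = 0.00813 from limma) and -0.88 for Vdr (adjusted p = 0.00288 from limma). Vdr moved most without Prlr+/+ P9.5 replicate 3, its lowest array, at -0.63 (adjusted p = 0.00468 from limma). Both receptors stayed called in Prlr+/+ with any single array left out. In Prlr-/- islets Thra was called without Prlr-/- P9.5 replicate 1, at -0.63, and without Prlr-/- NP replicate 1, at -0.68.

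**Figure D2:**
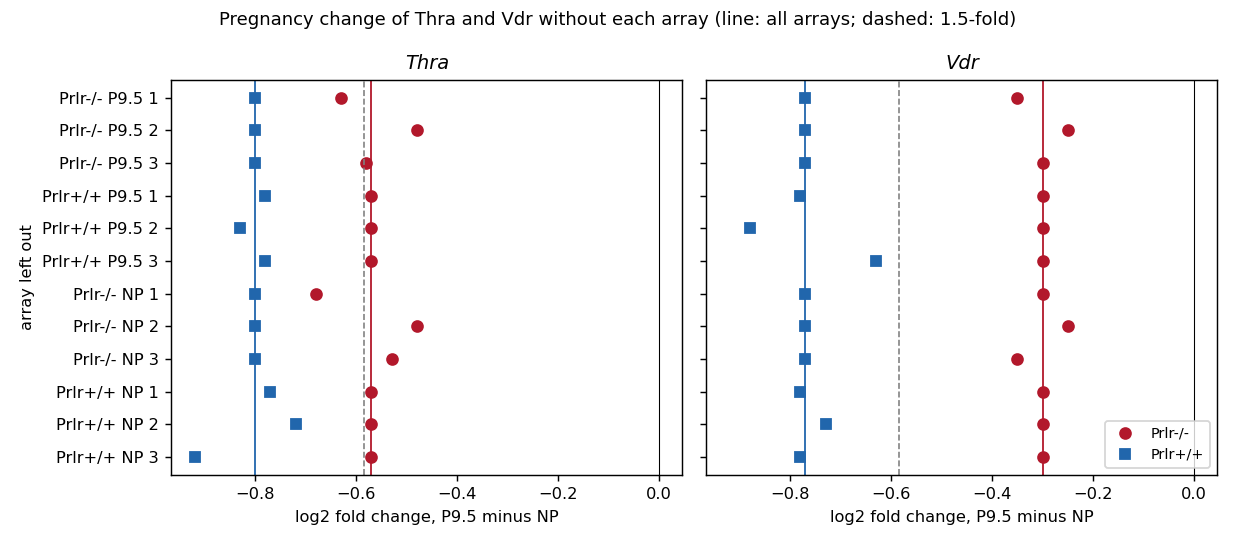
Log2 fold change of Thra and Vdr, P9.5 minus NP, with each array left out in turn (rows), in Prlr-/- (red circles) and Prlr+/+ (blue squares). Solid lines give the values with all 12 arrays and the dashed line the fold minimum of 1.5. The Prlr+/+ values stay beyond the dashed line in every row, and the Prlr-/- values of Thra lie on both sides of it.

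Without the fold minimum, 2 of 9 receptors (Thra and Nr3c2) had an adjusted p under 0.05 in Prlr-/- pregnancy, against 33.4% of all probe sets. For Nr3c2 it was 0.0639 with only the 2 groups fitted and 0.0643 with array weights in limma, and 0.0511 to 0.132 without any one of 8 single arrays, where the log2 fold change was 0.25 to 0.38. At an unadjusted p under 0.05, 1 receptor was higher and 4 were lower in Prlr-/- pregnancy, against 44.9% of all probe sets in either direction. The median log2 fold change of the 9 was -0.27 in Prlr-/- and -0.07 in Prlr+/+ pregnancy, and that of all probe sets was -0.07 in both. The -0.27 is the value of Esr2, which was above the floor on no array. Over the nose probe sets, which mark background, the median was -0.28 in Prlr-/- and -0.20 in Prlr+/+ pregnancy. The median of the 9 is thus not a sign that these receptors fell more than background did. Centring each array on its median moved the median of all probe sets in Prlr-/- pregnancy to 0.10, and Vdr there to -0.13, while quantile normalization put Vdr there at -0.47 (adjusted p = 0.00666 from limma), still under the fold minimum.

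**Figure D3:**
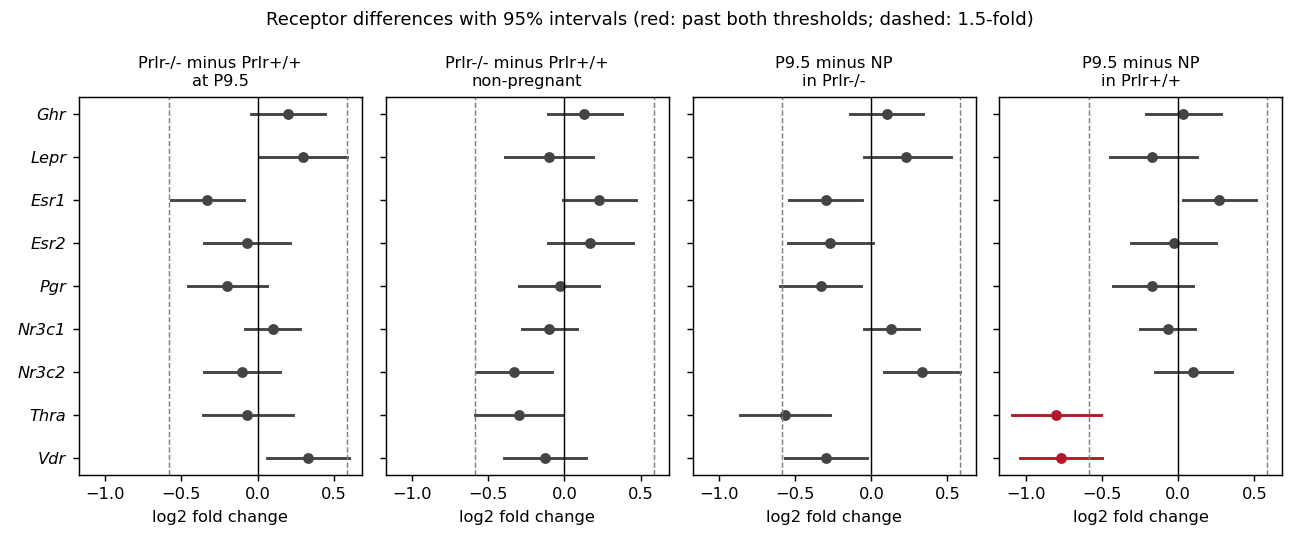
Log2 fold change of the 9 receptors (points) with 95% intervals from limma (bars) in the 4 comparisons, dashed lines marking 1.5-fold. Red marks Thra and Vdr in Prlr+/+ pregnancy, the only values past both thresholds.

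Ghr, the growth hormone receptor and of the 9 the nearest relative of the prolactin receptor, had levels of 9.2, 9.2 and 9.4 in Prlr-/- P9.5, 9.0, 9.2 and 9.0 in Prlr+/+ P9.5, 9.0, 9.2 and 9.3 in Prlr-/- NP, and 8.9, 9.1 and 9.1 in Prlr+/+ NP islets. All Prlr-/- P9.5 arrays lay above all Prlr+/+ NP arrays, and all other pairs of groups met or overlapped. The probe set stood 3.3 to 4.4 above the floor. The log2 fold change between Prlr-/- and Prlr+/+ was 0.20 at P9.5 (95% interval -0.04 to 0.44, adjusted p = 0.977 from limma). Pregnancy gave 0.10 in Prlr-/- (95% interval -0.14 to 0.34) and 0.03 in Prlr+/+ (95% interval -0.21 to 0.28). These intervals lie inside 1.5-fold in either direction.

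Lepr, the leptin receptor, had levels of 4.7, 4.5 and 4.5 in Prlr-/- P9.5, 4.1, 4.2 and 4.5 in Prlr+/+ P9.5, 4.3, 4.2 and 4.5 in Prlr-/- NP, and 4.6, 4.4 and 4.3 in Prlr+/+ NP islets. Of the nose probe sets 66.7% had a lower mean, so Lepr was not told apart from background. At P9.5 the log2 fold change between genotypes was 0.30 (95% interval 0.01 to 0.59, unadjusted p = 0.041, adjusted p = 0.89 from limma).

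Esr1, the oestrogen receptor alpha, was 0.1 to 0.9 above the floor. Its levels were 5.5, 5.7 and 5.4 in Prlr-/- P9.5, 5.8, 6.0 and 5.8 in Prlr+/+ P9.5, 6.0, 5.8 and 5.7 in Prlr-/- NP, and 5.6 on each of the 3 Prlr+/+ NP arrays. At P9.5 all Prlr-/- arrays lay below all Prlr+/+ arrays, and in NP islets all Prlr-/- arrays lay above all Prlr+/+ arrays. The log2 fold change between genotypes was -0.33 at P9.5 (95% interval -0.57 to -0.09, adjusted p = 0.63 from limma) and 0.23 in NP islets (95% interval -0.01 to 0.47, adjusted p = 0.416 from limma). The interaction was -0.57 (standard error 0.155, 95% interval -0.91 to -0.23, unadjusted p = 0.00352, adjusted p = 0.271 from limma). It was -0.50 (adjusted p = 0.299 from limma) without Prlr+/+ P9.5 replicate 2. Esr1 thus passed no threshold over all probe sets, and its differences are of the size of its distance to the floor.

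Esr2, the oestrogen receptor beta, and Pgr lay at or below the floor. Esr2 had 5.1, 5.0 and 4.7 in Prlr-/- P9.5, 5.2, 4.8 and 5.0 in Prlr+/+ P9.5, 5.2, 5.3 and 5.1 in Prlr-/- NP, and 5.0, 5.1 and 5.0 in Prlr+/+ NP islets. Pgr had 4.6, 4.7 and 4.3 in Prlr-/- P9.5, 4.8, 4.8 and 4.6 in Prlr+/+ P9.5, 5.0, 4.8 and 4.8 in Prlr-/- NP, and 4.8, 5.0 and 4.9 in Prlr+/+ NP islets. Pgr was below all NP arrays of its genotype on every Prlr-/- P9.5 array, with a log2 fold change of -0.33 (95% interval -0.60 to -0.07, unadjusted p = 0.0171, adjusted p = 0.0508 from limma). The progesterone pellet belongs to the same P9.5 group. Over the 1210 nose probe sets the median log2 fold change in the same comparison was -0.28, and 38.1% of them were lower at an adjusted p under 0.05. A difference of this size was thus common among probe sets of receptors that belong to the nose. In Prlr+/+ pregnancy the median of the nose probe sets was -0.20, and Pgr was at -0.17 (95% interval -0.43 to 0.10).

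Nr3c1 binds glucocorticoids. Its levels were 8.3, 8.4 and 8.4 in Prlr-/- P9.5, 8.3, 8.3 and 8.2 in Prlr+/+ P9.5, 8.2, 8.3 and 8.2 in Prlr-/- NP, and 8.4, 8.3 and 8.3 in Prlr+/+ NP islets. It had the narrowest range of the 9, 8.2 to 8.4 over all 12 arrays. The log2 fold change of pregnancy was 0.13 in Prlr-/- (95% interval -0.05 to 0.31) and -0.07 in Prlr+/+ (95% interval -0.25 to 0.11). At P9.5 it was 0.10 between genotypes (95% interval -0.08 to 0.28).

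Nr3c2 binds aldosterone and, where enzymes do not remove them, glucocorticoids. Its levels were 6.7, 7.0 and 6.8 in Prlr-/- P9.5, 7.0, 7.0 and 6.8 in Prlr+/+ P9.5, 6.5, 6.6 and 6.4 in Prlr-/- NP, and 7.0, 6.8 and 6.7 in Prlr+/+ NP islets. The 3 Prlr-/- NP arrays were the lowest of the 12 and overlapped no other group. The log2 fold change was -0.33 between Prlr-/- and Prlr+/+ NP islets (95% interval -0.58 to -0.08, unadjusted p = 0.0137, adjusted p = 0.275 from limma). Pregnancy in Prlr-/- gave 0.33 (1.26-fold, 95% interval 0.08 to 0.58, adjusted p = 0.0433 from limma), under the fold minimum, against 0.10 in Prlr+/+ (95% interval -0.15 to 0.35, adjusted p = 0.566 from limma). Their difference was 0.23 (adjusted p = 0.677 from limma).

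Between genotypes at P9.5, Lepr and Vdr were higher and Esr1 was lower in Prlr-/- at an unadjusted p under 0.05 (3 of 9), against 5.42% of all probe sets. Vdr differed there by 0.33 (95% interval 0.06 to 0.60, adjusted p = 0.751 from limma), by 0.45 (adjusted p = 0.428 from limma) without Prlr+/+ P9.5 replicate 2, and by 0.20 (adjusted p = 0.991 from limma) without Prlr+/+ P9.5 replicate 3. Without replicate 2 Lepr was at 0.27 (adjusted p = 0.915 from limma) and Esr1 at -0.27 (adjusted p = 0.871 from limma) at P9.5. In 7 of the 9 the 95% interval lay inside 1.5-fold. In NP islets Nr3c2 and Thra were lower in Prlr-/- at an unadjusted p under 0.05 (2 of 9, against 12.3% of all probe sets). There the interval lay inside 1.5-fold in 8 of the 9, Thra being the exception at -0.30 (95% interval -0.59 to -0.01, adjusted p = 0.392 from limma). For the interaction 0 of 9 were called, against 0.0788% of all probe sets. At an unadjusted p under 0.05 Vdr was higher and Esr1 lower (2 of 9, against 9.85% of all probe sets), and only 3 of the 9 intervals lay inside 1.5-fold.

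Ordered by group mean, Thra stood highest in Prlr+/+ NP (7.73), then Prlr-/- NP (7.43), Prlr+/+ P9.5 (6.93) and Prlr-/- P9.5 (6.87), and neighbours were apart only between the NP and P9.5 groups. Vdr ran from Prlr+/+ NP (9.43) through Prlr-/- NP (9.3) and Prlr-/- P9.5 (9) to Prlr+/+ P9.5 (8.67), again apart only between the stages. For Nr3c2, Prlr-/- NP (6.5) was apart from the next group, and the other 3 overlapped. For Esr1 the step between Prlr-/- NP (5.83) and Prlr+/+ NP (5.6) was apart and the others overlapped. For Ghr, Lepr, Esr2, Pgr and Nr3c1 all neighbouring groups overlapped.

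Among 11525 genes above the floor, those most like Thra over the 12 arrays by Pearson's r were Clip3 (0.971), Wbp2 (0.964) and Zc3h7b (0.954). Those most like Vdr were Fam234a (0.968), Armc5 (0.962) and Ank (0.954). The 12 points share the same 4 groups and one normalization, so these values describe the profile and carry no p.

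Thra and Lepr were each read beside a neighbouring gene. Nr1d1, a repressor of the circadian clock, overlaps the end of Thra in the RefSeq annotation. Its levels were 8.4, 7.6 and 7.6 in Prlr-/- P9.5, 7.7, 8.4 and 8.1 in Prlr+/+ P9.5, 8.4, 8.5 and 8.4 in Prlr-/- NP, and 9.2, 9.2 and 8.8 in Prlr+/+ NP islets. It fell in Prlr+/+ pregnancy by 1.00 on the log2 scale (standard error 0.224, adjusted p = 0.00894 from limma), as Thra did, and was at -0.57 (adjusted p = 0.0712 from limma) in Prlr-/- pregnancy. Which probes lie in the shared stretch is not given in the sources used here, so a contribution of one gene to the other's value was not tested. Leprot, the gene set beside Lepr and on the same chromosome, was at 6.8 to 7.4. Its annotated span does not overlap that of Lepr.

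Promoter windows of RefSeq genes, from 250 bases before to 50 bases after a start site, were available for 7 of the 9 receptors (10 windows). Thra and Nr3c1 are named only. Windows were searched on both strands for TTCNNNGAA, the core of STAT5 sites, for GGGCGG, the GC box bound by Sp1, for AGGTCA, the half-site of thyroid hormone, vitamin D and oestrogen receptors, and for AGAACA, the half-site of glucocorticoid, mineralocorticoid and progesterone receptors. TTCNNNGAA was in 8.3% of 32851 windows of all genes and in 1 of the 10 receptor windows, 1 of the 2 of Esr1. GGGCGG was in 35.7% of all windows and in 5 of the 10 receptor windows (Ghr, Lepr, Pgr, Nr3c2 and Vdr). AGGTCA was in 16.3% of all windows and AGAACA in 19%, and neither was in a receptor's window. The 2 windows printed are those of Vdr, which was called in Prlr+/+ pregnancy, and Esr1, which alone held the STAT5 letters. They are given 5′ to 3′ along the gene, with motifs in capitals, from GRCm38.p6, Vdr at chr15:97908247-97908546 on the minus strand and Esr1 at chr10:4709908-4710207 on the plus strand.
Vdr: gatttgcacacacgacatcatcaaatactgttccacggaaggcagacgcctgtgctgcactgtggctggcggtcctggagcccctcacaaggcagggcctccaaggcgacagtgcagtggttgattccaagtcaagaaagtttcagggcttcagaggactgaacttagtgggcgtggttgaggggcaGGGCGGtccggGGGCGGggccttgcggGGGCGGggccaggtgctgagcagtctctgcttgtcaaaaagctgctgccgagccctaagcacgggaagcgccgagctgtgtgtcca
Esr1: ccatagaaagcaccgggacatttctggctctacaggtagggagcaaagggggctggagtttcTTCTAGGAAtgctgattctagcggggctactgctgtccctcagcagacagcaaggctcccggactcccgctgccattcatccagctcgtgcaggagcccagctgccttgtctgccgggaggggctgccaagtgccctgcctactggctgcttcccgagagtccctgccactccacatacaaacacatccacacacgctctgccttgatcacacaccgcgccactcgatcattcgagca
Vdr held 3 GC boxes that began 63, 52 and 36 bases before the start site, and Esr1 held TTCTAGGAA, 188 bases before it. No searched motif overlapped another in these windows. A match describes the letters and is no evidence of binding.

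The partners and relatives of the receptors were taken from lists. Of 37 measured other nuclear receptors (of 41 listed), 0 rose and 2 fell in Prlr+/+ pregnancy (against 9.93% of all probe sets called). Their median was -0.20, against -0.07 over all probe sets and -0.20 over the nose probe sets. The 2 were Nr1d1 and Rxra, the retinoid X receptor that pairs with Vdr and Thra. Rxra had 6.9, 6.9 and 6.7 in Prlr-/- P9.5, 6.6, 6.8 and 6.4 in Prlr+/+ P9.5, 7.3, 7.4 and 7.2 in Prlr-/- NP, and 7.2, 7.6 and 7.6 in Prlr+/+ NP islets. Its P9.5 arrays were below its NP arrays in both genotypes, with a log2 fold change of -0.87 in Prlr+/+ (standard error 0.136, adjusted p = 0.00152 from limma) and -0.47 in Prlr-/- (adjusted p = 0.0218 from limma), the second under the fold minimum. In Prlr-/- pregnancy 1 of the 37 rose and 0 fell (against 14.5% of all probe sets called), with a median of -0.13. The 1 was Hnf4g, a relative of the liver and islet factor Hnf4a, at 0.60 (adjusted p = 0.00102 from limma). In Prlr+/+ pregnancy Hnf4g was at 0.53 (1.45-fold, adjusted p = 0.0031 from limma), under the fold minimum. Its interaction was 0.07 (adjusted p = 0.913 from limma). Hnf4g was not called without Prlr-/- NP replicate 3, at 0.55, nor with array weights, at 0.58. Thrb, the other thyroid hormone receptor, was at 0.30 in Prlr-/- (adjusted p = 0.103 from limma) and 0.23 in Prlr+/+ pregnancy (adjusted p = 0.234 from limma).

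Of 22 measured cytokine receptors other than Ghr and Lepr (of 26 listed), 1 rose and 2 fell in Prlr+/+ pregnancy. Over all probe sets 9.93% were called there. The median of the 22 was -0.18, against -0.20 over the nose probe sets. Cntfr, which binds ciliary neurotrophic factor, had 8.4 on each Prlr-/- P9.5 array, 8.0, 8.2 and 8.1 in Prlr+/+ P9.5, 8.8, 9.0 and 9.0 in Prlr-/- NP, and 9.4, 9.7 and 9.2 in Prlr+/+ NP islets. It fell by 1.33 on the log2 scale in Prlr+/+ (adjusted p = 0.000163 from limma) and was at -0.53 in Prlr-/- (adjusted p = 0.00707 from limma). Il6ra, the interleukin 6 receptor, fell by 1.07 in Prlr+/+ (adjusted p = 0.000575 from limma) and was at -0.57 in Prlr-/- (adjusted p = 0.00786 from limma). Both Prlr-/- values were under the fold minimum. Neither interaction passed, at 0.80 for Cntfr (adjusted p = 0.151 from limma) and 0.50 for Il6ra (adjusted p = 0.414 from limma). Il13ra1, part of the interleukin 13 receptor, rose by 0.90 in Prlr+/+ (adjusted p = 0.00077 from limma). It was the only one of the 22 called in Prlr-/- pregnancy (against 14.5% of all probe sets), at 0.80 (adjusted p = 0.000714 from limma).

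Of 21 measured chaperones and coregulators of the receptors (of 24 listed), 1 rose and 2 fell in Prlr+/+ pregnancy and 2 rose and 1 fell in Prlr-/- pregnancy. Over all probe sets 9.93% were called in Prlr+/+ and 14.5% in Prlr-/- pregnancy. Ptges3, the p23 co-chaperone that holds steroid receptors with Hsp90, rose by 0.60 in Prlr-/- (adjusted p = 0.00383 from limma) and by 0.67 in Prlr+/+ (adjusted p = 0.00339 from limma). Pgrmc1, a membrane protein linked to progesterone, rose by 0.60 in Prlr-/- (adjusted p = 0.00491 from limma) and was at 0.37 in Prlr+/+ (adjusted p = 0.0627 from limma). Crebbp, a histone acetyltransferase that assists nuclear receptors, fell by 0.63 in Prlr+/+ (adjusted p = 0.0146 from limma). In Prlr-/- Crebbp was at -0.47 (adjusted p = 0.0396 from limma), under the fold minimum. After quantile normalization Ptges3 was no longer called in either genotype, nor Pgrmc1, and after median centring Crebbp was not. Single arrays also decided these calls. Ptges3 dropped under the fold minimum without Prlr-/- P9.5 replicate 3 or Prlr-/- NP replicate 1 (0.55 each) in Prlr-/- pregnancy, and without Prlr+/+ P9.5 replicate 1 or Prlr+/+ NP replicate 3 (0.58 each) in Prlr+/+ pregnancy. Pgrmc1 did so without Prlr-/- P9.5 replicate 1 or 2 (0.58 each) or Prlr-/- NP replicate 1 (0.52), and Crebbp without Prlr+/+ NP replicate 2 (-0.52) or 3 (-0.57). Of 14 measured genes of hormone metabolism and transport (of 19 listed), 0 were called in any comparison. Hsd11b2, which inactivates glucocorticoids, was nearest at -0.57 in Prlr-/- pregnancy (adjusted p = 0.0233 from limma).

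Genes known to respond to each hormone were counted next. Of 16 measured glucocorticoid targets (of 16 listed), 0 rose and 3 fell in each genotype with pregnancy, against 7.09% of all probe sets lower in Prlr-/- and 4.21% in Prlr+/+. Without Prlr+/+ P9.5 replicate 2 the count was 4 in Prlr-/- and 3 in Prlr+/+. Fkbp5, a co-chaperone induced by glucocorticoids and listed among the chaperones too, had 9.0, 8.8 and 8.9 in Prlr-/- P9.5, 8.8, 8.6 and 8.5 in Prlr+/+ P9.5, 9.7 on each Prlr-/- NP array, and 9.0, 9.9 and 9.8 in Prlr+/+ NP islets. Zbtb16, a transcription factor that glucocorticoids induce, had 6.2, 6.3 and 6.4 in Prlr-/- P9.5, 5.9, 6.0 and 6.2 in Prlr+/+ P9.5, 7.8, 7.7 and 7.6 in Prlr-/- NP, and 6.7, 8.0 and 7.9 in Prlr+/+ NP islets. In both genes the P9.5 arrays lay below the NP arrays of their genotype, and Prlr+/+ NP replicate 1 was far below the other 2. Fkbp5 fell by 0.80 in Prlr-/- (adjusted p = 0.00875 from limma) and by 0.93 in Prlr+/+ (adjusted p = 0.0058 from limma). Zbtb16 fell by 1.4 in Prlr-/- (2.64-fold, adjusted p = 0.00249 from limma) and by 1.5 in Prlr+/+ (2.83-fold, adjusted p = 0.00275 from limma). The third was Mt1, a metallothionein, at -0.67 in Prlr-/- (adjusted p = 0.00536 from limma), and Per1, a clock gene, at -0.67 in Prlr+/+ (adjusted p = 0.00275 from limma). Mt1 was at -0.07 in Prlr+/+ and Per1 at -0.03 in Prlr-/-, and neither interaction passed (adjusted p = 0.376 and 0.26 from limma). The NP levels of the genotypes were unlike. Per1 had a mean of 7.5 in Prlr-/- and 8 in Prlr+/+ NP islets (-0.50, adjusted p = 0.146 from limma), and 7.47 and 7.33 at P9.5. Mt1 was at 0.33 between genotypes in NP islets (adjusted p = 0.381 from limma). Mt1 was not called without Prlr-/- P9.5 replicate 3 or Prlr-/- NP replicate 1, at -0.58, nor after median centring, at -0.50. Tsc22d3, another glucocorticoid target, stayed between 6.1 and 6.5 on all 12 arrays. The median of the 16 was -0.10 in Prlr-/- and -0.20 in Prlr+/+. That of all probe sets was -0.07 in both, and that of the nose probe sets was -0.28 in Prlr-/- and -0.20 in Prlr+/+.

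Of 10 measured STAT targets known from growth hormone and leptin signalling (of 10 listed), 1 rose and 1 fell in Prlr-/- pregnancy (against 14.5% of all probe sets called in either direction), and 3 rose and 1 fell in Prlr+/+ pregnancy (against 9.93%). At P9.5, 3 were lower in Prlr-/- islets, set against Prlr+/+ (against 0.231%). These were Cish, Socs2 (-1.60, adjusted p = 0.00195 from limma) and Igfals (-1.03, adjusted p = 0.000608 from limma). The P9.5 calls of Socs2 and Igfals stood in every alternative and with each single array left out, while that of Cish did not. Without Prlr+/+ P9.5 replicate 2, 1 rose and 0 fell in Prlr-/- pregnancy, 3 rose and 1 fell in Prlr+/+ pregnancy, and 2 were lower in Prlr-/- at P9.5. STAT5 also carries the signal of the prolactin receptor, so the list does not tell these receptors apart. Socs2, a feedback inhibitor of STAT5 signalling, had 7.4, 7.6 and 7.5 in Prlr-/- P9.5, 9.3, 9.2 and 8.8 in Prlr+/+ P9.5, 7.5, 7.5 and 7.3 in Prlr-/- NP, and 7.4, 7.3 and 6.7 in Prlr+/+ NP islets. The Prlr+/+ P9.5 group stood apart from the others. Socs2 rose by 1.97 in Prlr+/+ pregnancy (3.91-fold, adjusted p = 0.000163 from limma) and was at 0.07 in Prlr-/- pregnancy (adjusted p = 0.802 from limma), with an interaction of -1.90 (adjusted p = 0.0171 from limma). Without Prlr+/+ P9.5 replicate 2 the rise of Socs2 in Prlr+/+ was still called, at 1.92, and its interaction was not, at -1.85 (adjusted p = 0.0533 from limma). The interaction was also not called without Prlr-/- P9.5 replicate 1 (-1.85) or 3 (-1.90), nor when Prlr+/+ P9.5 replicate 1 (-1.80) or Prlr-/- NP replicate 1 (-1.87) was left out.

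Cish, a second feedback inhibitor, had 6.1, 6.3 and 5.8 in Prlr-/- P9.5, 8.6, 8.7 and 8.5 in Prlr+/+ P9.5, 7.6, 7.6 and 6.2 in Prlr-/- NP, and 7.1, 6.4 and 7.6 in Prlr+/+ NP islets. It was lower by 2.53 in Prlr-/- than in Prlr+/+ islets at P9.5 on the log2 scale (5.79-fold, adjusted p = 0.0117 from limma). That call was lost without any one of Prlr-/- P9.5 replicates 1 (-2.55) and 3 (-2.40) and Prlr+/+ P9.5 replicates 1 (-2.53) and 2 (-2.48), with adjusted p of 0.0568 to 0.0743 from limma. With pregnancy Cish rose by 1.57 in Prlr+/+ (adjusted p = 0.0102 from limma) and was at -1.07 in Prlr-/- (adjusted p = 0.0406 from limma), a call lost with any of 8 single arrays left out, where it lay between -1.08 and -0.83. The same call was lost with only the 2 groups fitted (adjusted p = 0.0763 from limma), with the replicate number as a block (adjusted p = 0.0538 from limma), after median centring (-0.90, adjusted p = 0.0736 from limma) and after quantile normalization (-1.05, adjusted p = 0.0642 from limma). Igfals, the partner of insulin-like growth factor 1 in plasma, had 6.9, 6.8 and 6.8 in Prlr-/- P9.5, 8.0, 7.9 and 7.7 in Prlr+/+ P9.5, 6.8, 6.6 and 6.7 in Prlr-/- NP, and 7.0 on each Prlr+/+ NP array. It rose by 0.87 in Prlr+/+ pregnancy (adjusted p = 0.000423 from limma) and was at 0.13 in Prlr-/- (adjusted p = 0.305 from limma). Bcl6, a repressor that STAT5 is known to lower, fell by 1.13 in Prlr+/+ (adjusted p = 0.00966 from limma) and was higher by 0.77 in Prlr-/- pregnancy (adjusted p = 0.0397 from limma), a call lost with any of 7 single arrays left out, at 0.50 to 0.77, and with only the 2 groups fitted (adjusted p = 0.105 from limma). Igf1, a main target of growth hormone in liver, was at 5.0 to 5.5 on all arrays.

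Without Prlr+/+ P9.5 replicate 2, the array with low Xist, 24 of the 27 calls of listed genes stood. The 3 lost were those of Cish at P9.5 and in Prlr-/- pregnancy (-1.07, adjusted p = 0.0522 from limma) and the interaction of Socs2. In Prlr+/+ pregnancy the other receptors were then at -1.17 for Nr1d1, -0.97 for Rxra, -1.38 for Cntfr, -1.15 for Il6ra and 0.88 for Il13ra1. The chaperones and coregulators were at 0.68 for Ptges3 and -0.67 for Crebbp, and the glucocorticoid targets at -0.92 for Fkbp5, -1.48 for Zbtb16 and -0.70 for Per1. Of the STAT targets Cish was at 1.52, Igfals at 0.85 and Bcl6 at -1.25. All these were still called.

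Of 13 measured oestrogen and progesterone targets (of 14 listed, Pgr itself among them) and of 9 measured thyroid hormone and vitamin D targets (of 10 listed), 0 were called in any comparison. Over all probe sets 14.5% were called in Prlr-/- and 9.93% in Prlr+/+ pregnancy. Xbp1, a factor of the secretory pathway and an oestrogen target in breast cells, was at 0.43 in Prlr-/- (adjusted p = 0.00377 from limma) and 0.40 in Prlr+/+ pregnancy (adjusted p = 0.00841 from limma), under the fold minimum. Hr, a corepressor and known thyroid hormone target, was at -0.50 in Prlr-/- pregnancy (adjusted p = 0.00643 from limma), under it as well. The median of the thyroid hormone and vitamin D targets was -0.07 in Prlr-/- and -0.10 in Prlr+/+ pregnancy.

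**Figure D4:**
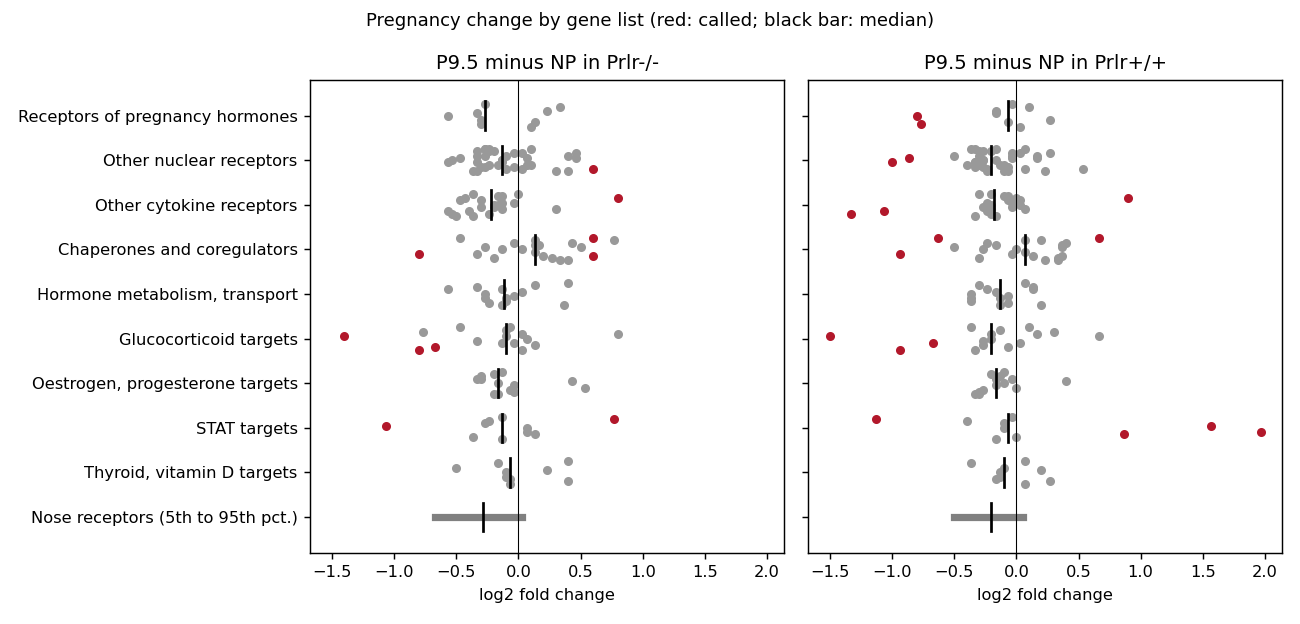
Log2 fold change of pregnancy, P9.5 minus NP, for each gene of the lists (points) with the list median (black bar), in Prlr-/- (left) and Prlr+/+ (right). Red points are called. The bottom row gives the 5th to 95th percentile of the 1210 nose probe sets. Thra and Vdr are the 2 red points of the top row in Prlr+/+, and the top row of Prlr-/- has none.

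Acinar cells make the digestive enzymes of the exocrine pancreas, and markers of theirs moved with pregnancy as well. Of 15 measured (of 19 listed), 1 rose and 9 fell in Prlr-/- pregnancy (against 14.5% of all probe sets called). In Prlr+/+ pregnancy 1 of the 15 rose and 0 fell (against 9.93%). The medians of the 15 were -1.27 in Prlr-/- and -0.47 in Prlr+/+. On the log2 scale their summed level was 13.43 to 15.08 in Prlr-/- P9.5, 13.91 to 15.12 in Prlr+/+ P9.5, 15.07 to 15.92 in Prlr-/- NP and 14.72 to 15.21 in Prlr+/+ NP islets, and Ptf1a, a factor that defines acinar cells, was not above the floor on any array. The mean log2 level of the 15 markers, not the summed level, served as a covariate. In Prlr-/- islets this mean was 8.77 to 10.24 at P9.5 and 10.13 to 11.01 in NP, so covariate and pregnancy could hardly be told apart there. With the covariate, Thra was at -0.82 (adjusted p = 0.00562 from limma) and Vdr at -0.81 (adjusted p = 0.0036 from limma) in Prlr+/+ pregnancy. In Prlr-/- pregnancy Thra was then at -0.61 (adjusted p = 0.0684 from limma) and Nr3c2 at 0.18 (adjusted p = 0.474 from limma), and 8 listed genes were no longer called. Of these, Fkbp5 was at -0.69, Zbtb16 at -1.23, Cish at -1.10 and Bcl6 at 0.78, still beyond the fold minimum but with adjusted p of 0.063 to 0.212 in limma. Mt1 was at -0.56, Ptges3 at 0.47 and Pgrmc1 at 0.56 (adjusted p of 0.0774 to 0.105 in limma), and Hnf4g was at 0.56 (adjusted p = 0.0293 from limma), under the fold minimum alone. Of 6 measured duct markers (of 8 listed), 1 fell in Prlr-/- (against 14.5%) and 2 in Prlr+/+ pregnancy (against 9.93%). Of 12 endothelial markers (of 12 listed), 2 rose in Prlr-/- (against 14.5%) and 2 fell in Prlr+/+ pregnancy (against 9.93%). The part of either in the results was not tested. Of 10 measured beta cell markers (of 10 listed), 1 rose and 0 fell in Prlr-/- pregnancy (against 14.5%), and 1 rose and 2 fell in Prlr+/+ pregnancy (against 9.93%). Ucn3, a peptide hormone of mature beta cells, rose by 0.60 in Prlr-/- (adjusted p = 0.0169 from limma) and by 0.60 in Prlr+/+ (adjusted p = 0.0237 from limma). The transcription factors Mafa and Nkx6-1 fell in Prlr+/+ by 0.67 (adjusted p = 0.00938 from limma) and 0.73 (adjusted p = 0.00369 from limma) on the log2 scale. The mean of the 10 stayed between 10.66 and 10.95 on all arrays, with members moving both ways. Without Prlr+/+ P9.5 replicate 2, Ucn3 was not called in Prlr+/+, 1 duct marker and 3 endothelial markers fell there, and 10 acinar markers fell in Prlr-/- pregnancy.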

How the data were processed

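Islets of 4 groups were measured on 12 arrays, 3 biological replicates each. The deposited log2 values come from robust multichip analysis (aroma.affymetrix), by which the authors corrected the background, normalized and summarised the probes; they were used as they are, so its choices carry into each value. Symbols came from the array annotation (21789 probe sets with 1 symbol, 1621 with several, 12101 with none), of which 21698 were updated through Entrez identifiers. The genome build of the probe sets is not given in the sources used here.

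A model of 4 group means over all probe sets was fitted with limma 3.58.1 in R 4.3.3 (lmFit and eBayes, Benjamini-Hochberg over all probe sets) and tested on simulated data. Comparisons were Prlr-/- against Prlr+/+ at each stage, P9.5 against NP in each genotype, and the interaction. The text names all 9 receptors, the called genes of each list (at most 4, else up to 2 with the smallest p, of which some are given), the 3 genes most like each called receptor, and Nr1d1 and Leprot. Thrb, Tsc22d3, Igf1, Ucn3, Mafa and Nkx6-1 were added after their values were seen. The members and lists were chosen with earlier results of these data known.

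Alternatives comprised fitting just the 2 groups of a comparison, the replicate number as a block, filters on dim or unnamed probe sets, median centring, quantile normalization, an intensity trend, array weights, other fold minimums and floors, the acinar level as a covariate and leaving out each array. Transplanted islets, cultured islets and quantitative RT-PCR were not analysed here.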

Additional observations from a re-analysis of the deposited data

Results flagged for a closer look

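In 4 genes every array of one genotype moved one way with pregnancy and every array of the other the opposite way, relative to the NP mean of their genotype, while the interaction did not pass the adjusted threshold in limma. These were Esr1 (interaction -0.57, adjusted p = 0.271 from limma), Nr3c1 (0.20, adjusted p = 0.607 from limma), Cish (-2.63, adjusted p = 0.111 from limma) and Bcl6 (1.90, adjusted p = 0.111 from limma). For Socs2 the interaction itself passed the thresholds, at -1.90 (adjusted p = 0.0171 from limma). Nr3c1 moved by 0.13 in Prlr-/- and -0.07 in Prlr+/+ pregnancy, close to the 0.1 step of the deposited values. For Bcl6 the NP means themselves were unlike, at 5.7 in Prlr-/- and 6.7 in Prlr+/+ islets.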

How the results depend on the processing

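Counts of called receptors were unchanged in all alternatives at P9.5 between genotypes (0), in NP islets between genotypes (0) and for the interaction (0), with 0 to 0 over single arrays left out. In Prlr+/+ pregnancy 2 were called in each alternative except a fold minimum of 2, which left 0, and 2 to 2 with single arrays left out. In Prlr-/- pregnancy the count of 0 became 1 after quantile normalization (Thra) and 2 with no fold minimum (Thra and Nr3c2), and was 0 to 1 with single arrays left out. Over all settings Thra in Prlr+/+ pregnancy ran from -0.92 to -0.72 (adjusted p 0.000201 to 0.0123 in limma) and Vdr from -0.90 to -0.63 (0.000168 to 0.0157). The 6 receptors above the floor became 5 at the 99th percentile and 7 with the highest Y-linked gene as the floor, and were 6 to 6 with single arrays left out.

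The replicate block changed no call of a receptor and, of the listed genes, only that of Cish in Prlr-/- pregnancy (-1.07, adjusted p = 0.0538): Thra in Prlr+/+ pregnancy was at -0.80 (adjusted p = 0.00528 in limma with the block) and Vdr at -0.77 (adjusted p = 0.00295). The replicate numbers were not taken as pairs. Deviations from the group means correlated at over 0.1 in 7 of 18 same-numbered pairs of arrays. Pairs with different numbers were not counted, so this does not decide whether the numbers mark pairs. The interaction has no fit of only 2 groups, and a rule that every probe set of a gene pass was not run, as each receptor has 1.

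Some small values that were not called changed sign. Ghr in Prlr+/+ pregnancy was -0.10 after quantile normalization, 0.00 with array weights and -0.02 with the acinar covariate; in Prlr-/- pregnancy it was -0.07 and -0.04 under quantile normalization and the covariate, and its interaction was -0.02 under the covariate. Esr2 in Prlr+/+ pregnancy was 0.03 after median centring, 0.06 after quantile normalization, 0.00 with array weights and 0.03 with the covariate. Nr3c1 in Prlr-/- pregnancy was -0.05 after quantile normalization. With single arrays left out, Ghr ran from -0.03 to 0.07 in Prlr+/+ pregnancy and from -0.02 to 0.13 for the interaction, Esr2 from -0.17 to 0.05 between genotypes at P9.5 and from -0.13 to 0.07 in Prlr+/+ pregnancy, Pgr from -0.10 to 0.02 between genotypes in NP islets and Thra from -0.13 to 0.02 between genotypes at P9.5. The cause was not tested. Of 45 receptor results, 33 kept direction and side of the thresholds in every setting, and so did 9 of 27 results of listed genes.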
